A study of Mus musculus with 6 samples.

Results

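Fatty acid oxidation is described here through 34 genes chosen by their known roles, which cover the carnitine shuttle, mitochondrial beta-oxidation, the transfer of electrons from it, and oxidation in peroxisomes. The genes were looked up by mouse symbol in a table of 49386 gene symbols measured in mouse epidermis, and the rule that picks them uses names and no measured value, although the list was drawn up with earlier results of these data known. Of the 34, 32 reached a mean of 1 FPKM in either group and were tested among 13500 genes. All 32 had a mean of at least 1 FPKM in both groups, so none entered through 1 group alone. FPKM counts sequenced fragments relative to the length of the transcript and to all fragments mapped in the library.

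Fatty acids enter mitochondria as carnitine esters, which the shuttle makes at the outer membrane, carries across the inner membrane and turns back into acyl-CoA. Each turn of mitochondrial beta-oxidation then shortens the chain by way of a dehydrogenase, a hydratase, another dehydrogenase and a thiolase, and the first of these passes electrons to the respiratory chain through a flavoprotein. Peroxisomes carry out a similar spiral on very long, branched and dicarboxylic acids, with hydrogen peroxide as a by-product that catalase removes. In skin, sebaceous glands and differentiating keratinocytes handle large amounts of lipid, and peroxisomal enzymes are known to be abundant in sebaceous glands.

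The RNA came from epidermis that had been separated from the skin of C57BL/6 mice at E19.5, the end of gestation. The control group held libraries 261, 262 and 264, labelled only as Control. The other group held libraries 263, 265 and 266, whose genotype label is Rictor -/- and whose titles read ricEKO. Rictor is the defining subunit of mTOR complex 2, a kinase complex that acts on AKT. The labels give no alleles, no Cre driver, no sex and no litter. They do not say that the libraries came from separate animals, so each p-value speaks only of the spread among 3 libraries per group, part of which may be technical.

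Rictor stood at 5.63, 6.02 and 4.37 FPKM in controls 261, 262 and 264. In 263, 265 and 266 it stood at 6.83, 7.04 and 6.86 FPKM. The level was therefore not lower in any library labelled as knockout, and the log2 difference was 0.33 ± 0.11 (limma, Benjamini-Hochberg adjusted p = 0.0694). The sources used here do not say which exons were targeted, so a value over the whole gene is no check of a deletion that leaves the rest of the transcript. For that reason the second group is called the knockout-labelled libraries throughout.

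The libraries differed in ways that touch every result below. Estimated relative depth ran from 1 to 1.21. Control 264 had 1.79% of its summed FPKM in mitochondrially encoded mRNA, against 3.54% to 4.06% in the other libraries. Across genes, its deviation from the mean of all 6 libraries also followed exonic length with a Spearman rho of -0.358. The knockout-labelled libraries had rho of 0.173 to 0.263 on the same measure, in which all libraries share 1 reference mean. Xist and Y-linked genes placed 2 male libraries among the controls and 1 among the knockout-labelled. Of all 13500 genes tested, 2101 were lower in the knockout-labelled libraries (15.6%) and 1068 were higher (7.91%).

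Of the 32 tested fatty acid oxidation genes, 26 fell in the knockout-labelled libraries and 0 rose, against 15.6% and 7.91% of all tested genes. All 32 had a negative difference, although Acadl, Cpt1c and Amacr turned slightly positive under another scaling or a length and GC correction, with a median of -0.45 on the log2(FPKM + 1) scale and a range from -0.86 to -0.04, beside a median of -0.06 over all tested genes. In 29 of the 32 every knockout-labelled library lay below every control, which held for 29.2% of all tested genes. The 34 genes summed to 1406, 1358 and 1681 FPKM in the controls and to 1074, 1057 and 1080.3 FPKM in the knockout-labelled libraries. In bulk tissue, fewer cells of a type and less RNA per cell cannot be told apart. The count of genes that fell was 16 without control 261, 12 without 263, 16 without 265 and 16 without 266, and it was 24 without control 262 and 26 without control 264. The share of all tested genes called lower changed in the same fits, to 9.55% without 261, 7.30% without 263, 8.62% without 265 and 7.42% without 266, and to 11.4% without 262 and 16.8% without 264. These shares are the background for every later count without the same library. None of the 32 genes rose in any of these fits. Of the 26 genes, 12 passed the threshold under all 15 alternatives in processing, while Hadhb and Ehhadh lost it in 9 each and the others in 1 to 7.

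**Figure D1:**
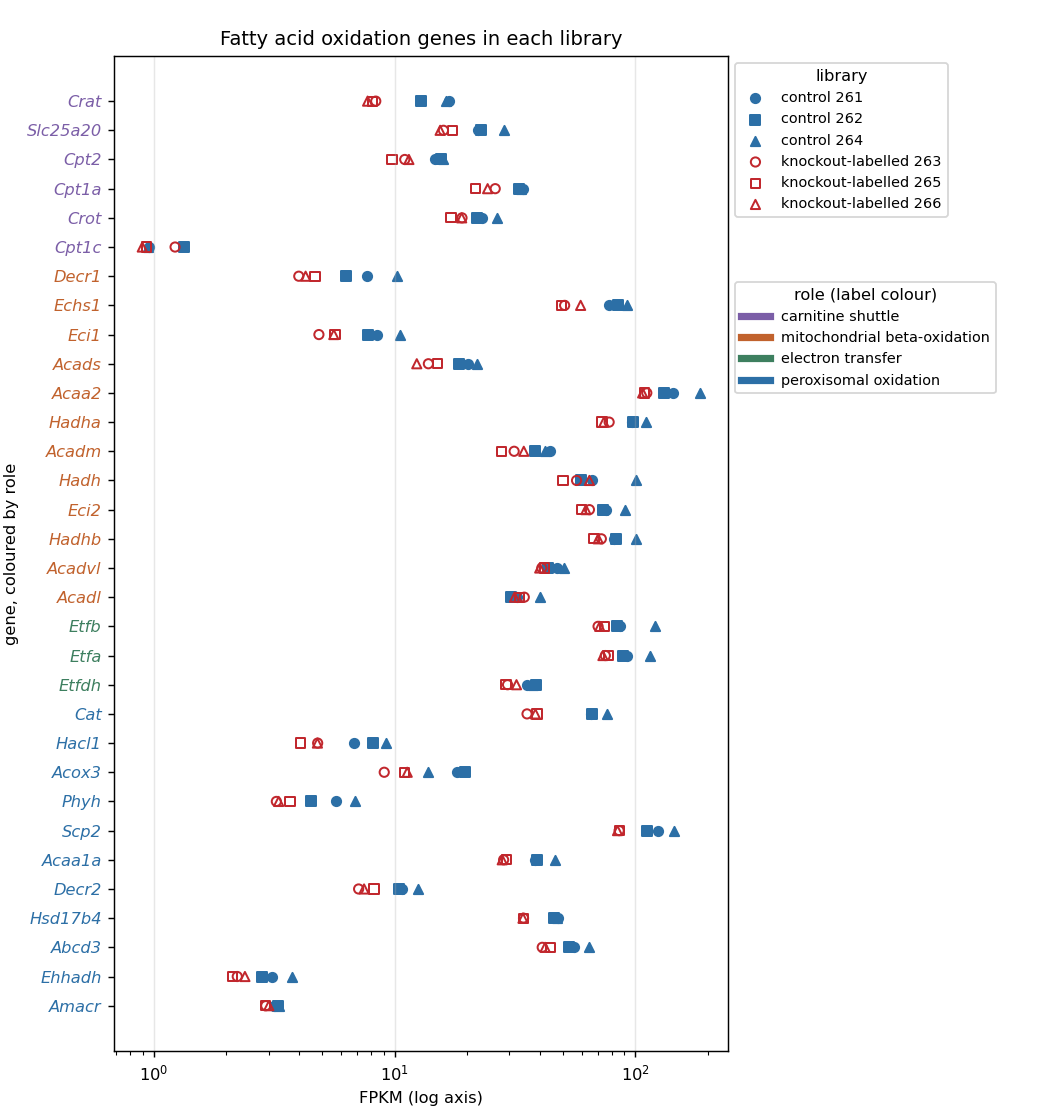
FPKM (log axis) of the 32 tested genes in each of the 6 libraries, with gene labels coloured by role, filled symbols for controls and open symbols for knockout-labelled libraries. The open symbols lie to the left of all filled ones in 29 genes, and control 264 holds the highest value in 25.

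Within the controls, library 264 stood above the other controls for most of these genes. It held the highest value of 25 of the 32, control 261 of 4 and control 262 of 3, and no knockout-labelled library held any. Relative to the control mean, the median gene of the set stood at -0.06, -0.11 and 0.16 in controls 261, 262 and 264 on the log2 scale. The same median was -0.44, -0.47 and -0.45 in 263, 265 and 266. On this measure the knockout-labelled libraries lay closer to each other than the controls did.

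Stretches of genome before the RefSeq starts of several of these genes are shown first, because nuclear receptors such as the PPARs are known to bind repeats of the motif AGGTCA near genes of lipid oxidation. RefSeq windows of 300 bases (250 before and 50 after the transcription start, build GRCm38.p6) were at hand for 28 of the 34 genes. AGGTCA on either strand occurred in 8 of those 28 windows (28.6%), in 14.7% of the windows of 9828 tested genes and in 16.3% of all 32851 windows. These 8 were Acadm, Acadvl, Cat, Cpt1a, Cpt1c, Echs1, Phyh and Scp2, of which 6 fell and Acadvl and Cpt1c did not pass the test. The motif was thus in 6 of the 22 genes with a window that fell. It was also in 2 of the 6 with a window that did not pass or were untested, so it was no commoner among those that fell. That motif and its surroundings are printed for the 7 genes where they lie outside annotated exons. Capitals mark the motif, which reads TGACCT where it lies on the opposite strand.

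Cat, chr2:103485337-103485372, minus strand, motif from -204: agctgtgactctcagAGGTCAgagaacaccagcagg
Acadm, chr3:153944872-153944893, minus strand, motif from -249: gTGACCTtcgggctccggtgac
Scp2, chr4:108118636-108118671, minus strand, motif from -109: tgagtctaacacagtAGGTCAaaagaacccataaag
Cpt1c, chr7:44974977-44975012, minus strand, motif from -146: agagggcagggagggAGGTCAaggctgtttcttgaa
Echs1, chr7:140116484-140116519, minus strand, motif from -83: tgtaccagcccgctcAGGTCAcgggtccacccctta
Acadvl, chr11:70015495-70015530, minus strand, motif from -87: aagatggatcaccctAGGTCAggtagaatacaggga
Cpt1a, chr19:3323192-3323227, plus strand, motif from -94: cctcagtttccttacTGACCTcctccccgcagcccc

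Positions count from the RefSeq start, and the Acadm stretch ends early because its motif sits at the edge of the window. The starts used for Scp2 and Cpt1a, and the stretches printed for them, lie inside the longer genes of the GENCODE annotation. A match describes letters, and binding was not measured here. The DR1 element, in which AGGTCA is repeated after a single base, was in 0 of the 28 windows and in 0.0204% of those of tested genes, and TCAAGGTCA was in 0 and in 0.366%. Among general promoter motifs, CCAAT was in 13 of 28 windows (46.4%, against 42.8% of tested genes) and GGGCGG in 22 (78.6%, against 68.7%).

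The carnitine shuttle was lower as a group. Of its 7 genes 6 were tested, 5 fell (83.3%, beside 15.6% of all tested genes), and the median difference was -0.47. Without 263 or without 266 only 3 fell, beside 7.30% and 7.42% of all tested genes.

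Cpt1a encodes the liver-type carnitine palmitoyltransferase of the outer mitochondrial membrane, the regulated entry step. The gene (ENSMUSG00000024900) lies at chr19:3322334-3385733 on GRCm38. Its level was 34.2, 32.7 and 33.5 FPKM in controls 261, 262 and 264 and 26.2, 21.7 and 24.3 FPKM in 263, 265 and 266. The groups did not overlap, and the control mean of 33.5 ± 0.717 FPKM compared with 24.1 ± 2.27 FPKM (here and below, means carry the SD of 3 libraries). The log2 difference was -0.46 ± 0.08 (SE; limma, Benjamini-Hochberg adjusted p = 0.00993). Cpt2, which turns the carnitine ester back into acyl-CoA on the matrix side, stood at 14.7, 15.6 and 15.9 FPKM in the controls and at 11.02, 9.76 and 11.5 FPKM in the knockout-labelled libraries. Again no libraries of the opposite groups crossed, and Cpt2 fell by 30.1% (log2 -0.48 ± 0.08, limma adjusted p = 0.00781).

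Slc25a20, the carrier that exchanges acylcarnitine for carnitine across the inner membrane, was 22.1, 23.0 and 28.4 FPKM in controls and 15.95, 17.3 and 15.5 FPKM in knockout-labelled libraries. All of the latter lay below all controls, and the gene fell by 33.7% (log2 -0.56 ± 0.10, limma adjusted p = 0.0129). Crat, carnitine acetyltransferase, which buffers short acyl groups, changed most within the shuttle. It measured 16.8, 12.9 and 16.4 FPKM in the controls and 8.35, 8.10 and 7.72 FPKM in the others, with a wide gap between the groups. Crat fell by 47.5% (log2 -0.84 ± 0.11, limma adjusted p = 0.00419). Crot, the peroxisomal carnitine octanoyltransferase, was 23.1, 21.9 and 26.6 FPKM in controls and 19.0, 17.2 and 19.0 FPKM in knockout-labelled libraries. It fell by 22.9%, from 23.9 ± 2.42 to 18.4 ± 1.08 FPKM (limma adjusted p = 0.0304).

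The remaining forms of the entry enzyme were scarce. Cpt1c, the form known from neurons, was 0.952, 1.33 and 0.951 FPKM in controls and 1.23, 0.934 and 0.896 FPKM in knockout-labelled libraries. The groups overlapped, and the log2 difference of -0.04 had a 95% interval of -0.35 to 0.27 (limma adjusted p = 0.845). Its sign turned positive under quantile normalization and without control 262 or without 266. Cpt1b, the muscle form, was under 1 FPKM in every library and was not tested. It was listed at 0.284, 0.453 and 0.312 FPKM in controls and at 0.562, 0.120 and 0.208 FPKM in the knockout-labelled libraries, which overlapped. Its exons share 2744 bases with a readthrough gene on the same strand, so its value is uncertain.

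Mitochondrial beta-oxidation held 12 genes, all tested. Of these 9 fell (75.0%, beside 15.6% of all tested genes), 3 did not pass the test, and the median difference was -0.42. The count depended on single libraries, at 4 without control 261, 3 without 263, 5 without 265 and 5 without 266. The first step of the spiral is catalysed by acyl-CoA dehydrogenases that prefer different chain lengths. Acads, for short chains, was 20.1, 18.6 and 22.02 FPKM in the controls and 13.8, 15.1 and 12.4 FPKM in the knockout-labelled libraries. The groups were apart, and Acads fell by 32.0% (log2 -0.53 ± 0.09, limma adjusted p = 0.0113). Acadm, for medium chains, went from 44.2, 38.1 and 42.0 FPKM to 31.4, 27.7 and 34.4 FPKM, also without overlap. It fell by 24.8% (log2 -0.40 ± 0.10, limma adjusted p = 0.0282).

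The dehydrogenases for longer chains did not pass the test. Acadl, the long-chain form, was 32.1, 30.5 and 40.1 FPKM in controls 261, 262 and 264 and 34.6, 33.0 and 31.5 FPKM in the others. Control 261 lay among the knockout-labelled libraries, control 262 lay below all of them and control 264 stood above all of them. Its difference of -0.04 had a 95% interval of -0.30 to 0.21 (limma adjusted p = 0.797) and was 0.07 without control 264, 0.00 under median scaling and 0.09 after the length and GC correction. Acadvl, the membrane-bound very-long-chain form, was 47.0, 43.4 and 50.6 FPKM in controls and 40.8, 42.0 and 40.1 FPKM in knockout-labelled libraries. Its groups did not overlap, but the log2 difference of -0.19 (95% interval -0.36 to -0.02) had a limma adjusted p of 0.102. Its exons share 1151 bases with those of Dvl2 on the opposite strand, and whether the libraries kept strand is unknown here.

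The trifunctional protein, which carries out the last steps on long chains at the inner membrane, is built from the products of Hadha and Hadhb. These genes lie head to head on chromosome 5, Hadha at chr5:30118304-30155162 on the minus strand and Hadhb at chr5:30155248-30184593 on the plus strand (GRCm38). The 85 bases between their annotated starts are shown because the 2 genes start at its ends in opposite directions. Capitals mark GGGCGG, the GC box.

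Between Hadha and Hadhb, chr5:30155163-30155247, plus strand: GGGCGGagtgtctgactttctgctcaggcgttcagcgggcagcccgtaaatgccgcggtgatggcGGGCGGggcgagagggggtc

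Hadha, the alpha subunit with hydratase and dehydrogenase activity, was 96.3, 97.7 and 111 FPKM in the controls and 77.8, 72.7 and 73.9 FPKM in the knockout-labelled libraries. Hadhb, the thiolase subunit, was 81.5, 83.3 and 100.9 FPKM and 72.2, 67.2 and 70.1 FPKM in the same order. Neither gene overlapped between groups, and control 264 was the highest library for both. Hadha fell by 26.5% (log2 -0.44 ± 0.08, limma adjusted p = 0.0106) and Hadhb fell by 21.1% (log2 -0.33 ± 0.09, limma adjusted p = 0.0459).

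The soluble matrix enzymes for shorter chains followed the same direction. Echs1, the short-chain enoyl-CoA hydratase, was 77.5, 85.0 and 91.9 FPKM in controls and 50.8, 49.3 and 59.2 FPKM in knockout-labelled libraries. The lowest control lay well above the highest knockout-labelled library, and Echs1 fell by 37.3% (log2 -0.67 ± 0.10, limma adjusted p = 0.00632). Acaa2, the matrix thiolase and the most abundant gene of the set, was 144, 131 and 186 FPKM in the controls and 111, 109 and 107 FPKM in the others. The knockout-labelled values were close together while the controls spread by the height of 264, and Acaa2 fell by 28.8% (log2 -0.47 ± 0.13, limma adjusted p = 0.0400). Hadh, the soluble hydroxyacyl-CoA dehydrogenase, did not pass the test. Its controls were 65.9, 59.4 and 100.8 FPKM and its knockout-labelled libraries 57.0, 50.002 and 64.4 FPKM, so that 266 lay above control 262. The log2 difference of -0.36 had a 95% interval of -0.84 to 0.11 (limma adjusted p = 0.229).

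Unsaturated fatty acids need auxiliary enzymes that move or remove double bonds before the spiral can go on. Decr1, the mitochondrial dienoyl-CoA reductase, was 7.71, 6.29 and 10.2 FPKM in controls and 4.001, 4.67 and 4.27 FPKM in knockout-labelled libraries. It fell by 46.6% (log2 -0.75 ± 0.16, limma adjusted p = 0.0178). Eci1, a mitochondrial enoyl-CoA isomerase, went from 8.42, 7.73 and 10.6 FPKM to 4.85, 5.66 and 5.59 FPKM. The knockout-labelled mean was 0.534 of the control mean for Decr1 and 0.603 for Eci1, the lowest ratios of the 12 mitochondrial beta-oxidation genes. Eci1 had a log2 difference of -0.63 ± 0.12 (limma adjusted p = 0.0128). Eci2, an isomerase found in mitochondria and peroxisomes, was 75.8, 73.0 and 90.9 FPKM in controls and 64.4, 59.8 and 62.3 FPKM in knockout-labelled libraries. It fell from 79.9 ± 9.62 to 62.2 ± 2.31 FPKM (log2 -0.35 ± 0.09, limma adjusted p = 0.0388).

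Electrons from the acyl-CoA dehydrogenases pass to the electron transfer flavoprotein, made from Etfa and Etfb, and then to its ubiquinone oxidoreductase, Etfdh. Of these 3 genes 2 fell (66.7%, beside 15.6% of all tested genes), and the median difference was -0.38. Etfa was 92.7, 88.8 and 115 FPKM in controls and 75.0, 77.3 and 73.3 FPKM in knockout-labelled libraries (log2 -0.38 ± 0.11, limma adjusted p = 0.0417). Etfdh was 35.4, 38.5 and 37.5 FPKM and 29.5, 29.0 and 32.1 FPKM, and it fell by 18.7% (log2 -0.29 ± 0.07, limma adjusted p = 0.0250). In both genes the groups were apart.

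Etfb was also lower in every knockout-labelled library, at 86.6, 83.6 and 120.2 FPKM in controls against 69.96, 74.4 and 71.1 FPKM. Its exons cover 1164 bases, of which 617 are shared with a predicted gene on the same strand, so its value is uncertain. The Etfb difference of -0.41 ± 0.14 did not pass the test (limma adjusted p = 0.0771). Without control 264, whose value stood far above the other controls, the difference was -0.24 and passed it (adjusted p = 0.0211). The count of the 3 genes that fell was 3 without control 264, 0 without 263, 0 without 265 and 1 without any other single library.

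**Figure D2:**
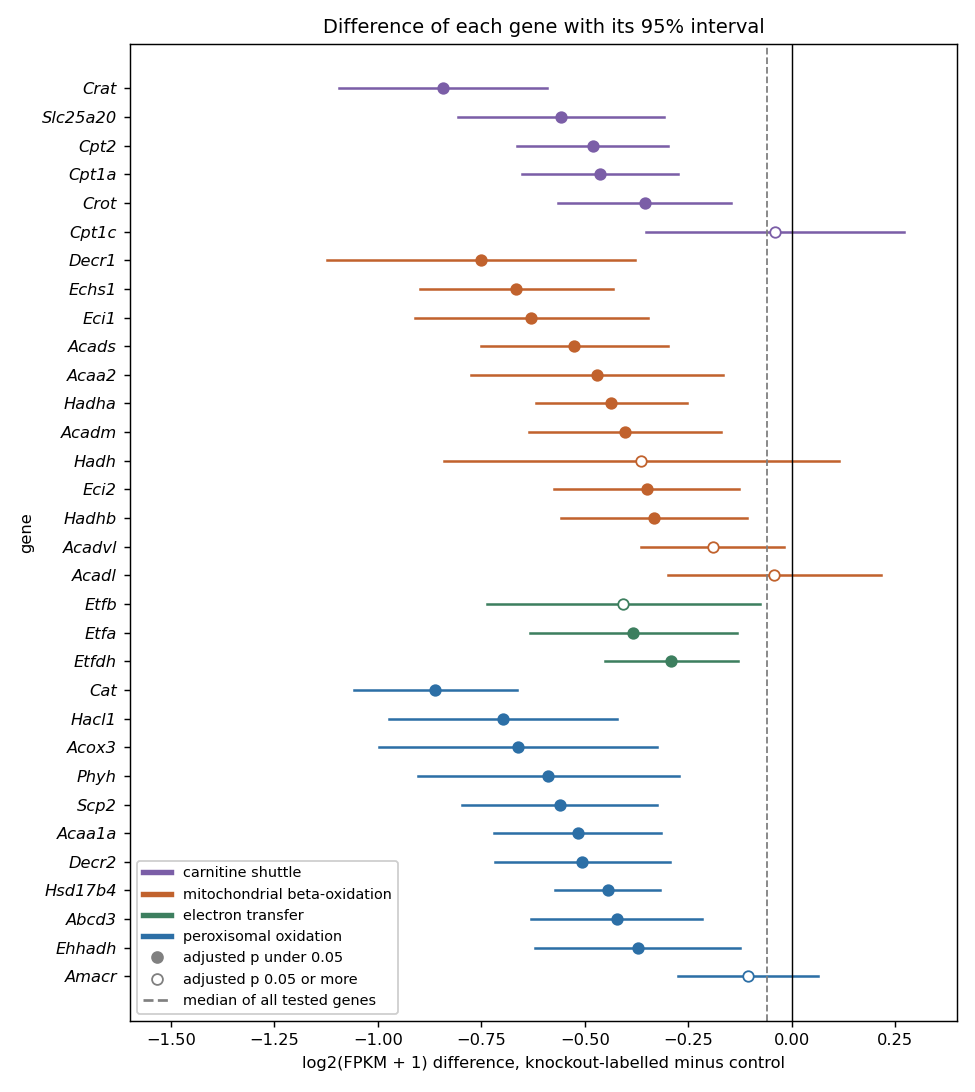
Difference of each tested gene on the log2(FPKM + 1) scale, knockout-labelled minus control, with its 95% interval, coloured by role and filled where the limma adjusted p was under 0.05. All 32 points lie below 0 in this scaling (Acadl, Cpt1c and Amacr cross it in others), from Cat at -0.86 to Cpt1c at -0.04, and the dashed line marks the median of all tested genes at -0.06.

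Peroxisomal oxidation had the lowest median of the 4 roles, at -0.52. Without control 264 its median was -0.44 and that of the carnitine shuttle was lower, at -0.45. Of its 12 genes 11 were tested, 10 fell (90.9%, beside 15.6% of all tested genes) and 1 did not pass the test. Without 263 the count was 6, and it was 7 to 10 without any other single library. Entry into the organelle is by Abcd3, an ATP-driven transporter of the peroxisomal membrane. Abcd3 was 55.5, 52.8 and 64.3 FPKM in controls and 41.0, 44.4 and 42.2 FPKM in knockout-labelled libraries. It fell by 26.1% (log2 -0.42 ± 0.09, limma adjusted p = 0.0169).

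The peroxisomal spiral begins with an oxidase. Acox3, the oxidase for branched chains, was 18.1, 19.7 and 13.8 FPKM in controls 261, 262 and 264 and 9.06, 10.96 and 11.3 FPKM in 263, 265 and 266. Unlike most of the set, it had its lowest control value in 264, and the groups were still apart. Acox3 fell by 39.3% (log2 -0.66 ± 0.14, limma adjusted p = 0.0192).

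Both bifunctional enzymes that follow were lower. Hsd17b4, the D-bifunctional protein, was 47.5, 46.1 and 47.3 FPKM in controls and 34.3, 34.3 and 34.1 FPKM in knockout-labelled libraries. The values within each group were close together and the groups were apart, and it fell by 27.1% (log2 -0.44 ± 0.05, limma adjusted p = 0.00371). Ehhadh, the L-bifunctional protein, was scarce, at 3.09, 2.82 and 3.74 FPKM against 2.22, 2.13 and 2.39 FPKM. The groups did not overlap, and its log2 difference was -0.37 ± 0.10 (limma adjusted p = 0.0441).

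The thiolase step closes the spiral. Acaa1a, a peroxisomal thiolase for straight chains, was 38.3, 39.2 and 46.5 FPKM in controls and 28.4, 29.1 and 28.0 FPKM in knockout-labelled libraries. It fell by 31.1% (log2 -0.52 ± 0.08, limma adjusted p = 0.00856). Its close copy Acaa1b was under 1 FPKM and untested, at 0.591, 0.527 and 0.571 FPKM against 0.164, 0.265 and 0.321 FPKM, without overlap. How the counting divided reads between the near-identical Acaa1a and Acaa1b is unknown here, so both values are uncertain. Scp2, which encodes a lipid carrier and a thiolase for branched chains, was 124, 112 and 145 FPKM in controls and 85.6, 85.6 and 84.3 FPKM in knockout-labelled libraries. It fell by 32.8% (log2 -0.56 ± 0.10, limma adjusted p = 0.0107).

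Branched chains such as phytanic acid first pass through alpha-oxidation. Phyh, phytanoyl-CoA hydroxylase, was 5.70, 4.52 and 6.82 FPKM in controls and 3.23, 3.68 and 3.30 FPKM in knockout-labelled libraries. It fell by 40.1% (log2 -0.59 ± 0.13, limma adjusted p = 0.0231). Hacl1, the lyase of the same pathway, was 6.76, 8.17 and 9.17 FPKM against 4.79, 4.06 and 4.78 FPKM. It fell by 43.4% (log2 -0.70 ± 0.12, limma adjusted p = 0.00888), and its exons share up to 1540 bases with a predicted gene on the same strand. Amacr, the racemase that prepares branched acids for the oxidases, did not pass the test. Its values of 3.16, 3.28 and 3.30 FPKM lay only a little above those of 2.92, 2.91 and 3.004 FPKM (log2 -0.11 ± 0.07, limma adjusted p = 0.316).

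The auxiliary and protective enzymes of the peroxisome moved the same way. Decr2, the peroxisomal dienoyl-CoA reductase, was 10.8, 10.4 and 12.5 FPKM in controls and 7.09, 8.21 and 7.47 FPKM in knockout-labelled libraries (log2 -0.51 ± 0.09, limma adjusted p = 0.0107). Cat, catalase, which breaks down the hydrogen peroxide made by the oxidases, had a log2 difference as low as that of Crat, and their order changed with the pseudocount and with the libraries used. Cat was 65.7, 65.8 and 76.5 FPKM in controls and 35.5, 39.0 and 38.4 FPKM in knockout-labelled libraries. The gap between the groups was larger than the spread within either, and Cat fell by 45.7% (log2 -0.86, 95% interval -1.06 to -0.66, limma adjusted p = 0.00225).

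Cat (ENSMUSG00000027187) lies at chr2:103453849-103485160 on the minus strand of GRCm38. The 243 bases just before its first exon are shown in full because Cat was among the genes with the lowest log2 differences of the set. Capitals mark AGGTCA as above, the GC box as above, and the motif CCAAT, which reads ATTGG where it lies on the opposite strand.

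Upstream of Cat, chr2:103485161-103485403, minus strand: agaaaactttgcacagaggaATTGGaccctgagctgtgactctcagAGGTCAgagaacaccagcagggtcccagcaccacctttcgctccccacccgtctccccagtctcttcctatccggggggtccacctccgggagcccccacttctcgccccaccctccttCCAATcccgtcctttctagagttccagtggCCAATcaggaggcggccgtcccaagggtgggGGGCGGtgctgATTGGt

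The citrate cycle and the respiratory chain, which take up the products of beta-oxidation in the same mitochondria, showed smaller differences. Of their 55 tested genes 2 fell (3.64%, beside 15.6% of all tested genes) and 0 rose, with a median of -0.10. Sdhb, a subunit of succinate dehydrogenase, fell from 91.2 ± 6.62 to 72.5 ± 3.77 FPKM (log2 -0.33 ± 0.08, limma adjusted p = 0.0270), and Ndufb3, of complex I, had a log2 difference of -0.38 ± 0.09 (limma adjusted p = 0.0238). Cs, citrate synthase, was 133.8 ± 4.45 FPKM in controls and 127.0 ± 2.14 FPKM in knockout-labelled libraries (limma adjusted p = 0.393). Mdh2, malate dehydrogenase, was 165 ± 19.54 and 180.5 ± 6.41 FPKM (limma adjusted p = 0.357). Atp5b and Atp5a1, subunits of ATP synthase, had differences of 0.04 (limma adjusted p = 0.824) and -0.08 (limma adjusted p = 0.503). Without control 264, 3 of the 55 fell and 3 rose, and their median was 0.00. Without 261, 263, 265 or 266, 0 fell.

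Set against these genes within each library, the fatty acid oxidation genes took a smaller share. Their summed FPKM was 22.5%, 23.0% and 22.2% of that of the citrate cycle and respiratory chain genes in controls 261, 262 and 264, and 17.1%, 17.9% and 17.7% in 263, 265 and 266. The controls, 264 included, lay within 1 percentage point of each other on this scale. The shuttle went from 1.79%, 1.82% and 1.61% to 1.31%, 1.27% and 1.30%. Mitochondrial beta-oxidation went from 11.2%, 11.4% and 11.3% to 8.96%, 9.07% and 9.26%, and peroxisomal oxidation from 6.06%, 6.17% and 5.67% to 4.05%, 4.48% and 4.25%. No role overlapped between groups. These shares are a description with no test, since the genes were chosen with earlier results known.

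**Figure D3:**
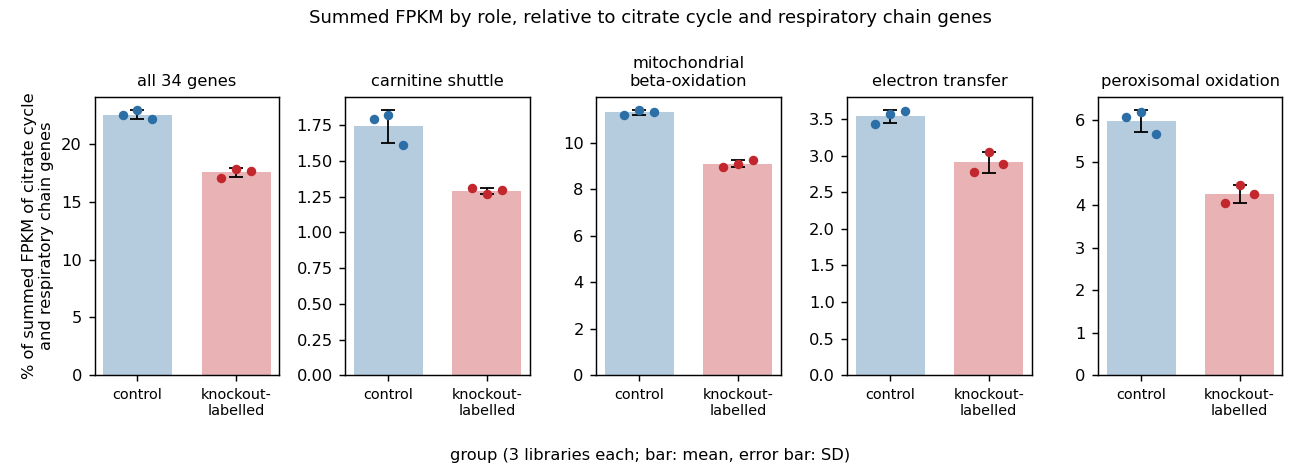
Summed FPKM of all 34 genes and of each role as a percentage of the summed FPKM of citrate cycle and respiratory chain genes, 1 point per library, with the mean as a bar and the SD as an error bar (3 libraries per group). For all genes the mean was 22.5 ± 0.387% in controls and 17.6 ± 0.408% in knockout-labelled libraries, and the points of the groups were apart in every panel.

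Genes around the pathway were described by lists. Before oxidation, fatty acids are taken up and joined to coenzyme A. Of 14 tested genes of this step 6 fell (42.9%) while 1 rose, beside 15.6% and 7.91% of all tested genes. Acsbg1, an acyl-CoA synthetase, fell from 221 ± 10.3 to 116 ± 12.5 FPKM (log2 -0.93 ± 0.09, limma adjusted p = 0.00241). The synthetases Acsl4 (-0.68) and Acsl1 (-0.55) and the transporter Slc27a6 (-0.56) fell too, with limma adjusted p of 0.00319, 0.0122 and 0.0117. Fabp5, the epidermal fatty acid binding protein, was the gene that rose and is named after its value was seen. It went from 986 ± 206 to 1610 ± 354 FPKM (log2 0.70 ± 0.20, limma adjusted p = 0.0489), and this call was lost without control 261, 262, 263 or 266.

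Other acyl-CoA enzymes, most of them mitochondrial, had a median of -0.48. Among their substrates are products of branched amino acids, propionyl-CoA and thioesters. Of 20 tested, 14 fell and 0 rose, with 8 falling without 263, 7 without 265 and 8 without 266. Echdc1, ethylmalonyl-CoA decarboxylase, had a log2 difference of -0.71 ± 0.10 (limma adjusted p = 0.00526). Mcee, methylmalonyl-CoA epimerase (-0.63), Acadsb, the short branched-chain dehydrogenase (-0.49), and Acot2, a mitochondrial thioesterase (-0.69), had limma adjusted p of 0.0060, 0.0076 and 0.00839. Of 7 genes for malonyl-CoA and ketone bodies 2 fell (28.6%, beside 15.6% of all tested genes), among them Mlycd, malonyl-CoA decarboxylase (-0.33, limma adjusted p = 0.0403). Without control 264, 4 of these fell, and 1 did without any other single library.

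The peroxisome itself was covered by genes for its assembly and by its other proteins. Of 16 assembly genes 9 fell (56.25%, beside 15.6% of all tested genes) and 0 rose, with a median of -0.26. Without 263, 265 and 266 the count was 4, 3 and 4, beside 7.30%, 8.62% and 7.42% of all tested genes. Pex11g and Pex11a, which take part in peroxisome division, had log2 differences of -0.86 ± 0.11 (limma adjusted p = 0.00468) and -0.43 ± 0.08 (limma adjusted p = 0.0109). Pex16 (-0.43, limma adjusted p = 0.0123) and Pex3 (-0.56, limma adjusted p = 0.0137) serve the insertion of membrane proteins. Of 17 other peroxisomal genes 4 fell (23.5%, beside 15.6% of all tested genes) and 1 rose. Pxmp4, a peroxisomal membrane protein, fell from 57.6 ± 4.49 to 22.7 ± 1.56 FPKM (log2 -1.30 ± 0.08, limma adjusted p = 0.000643), a larger log2 difference than that of any of the 32 oxidation genes. Ech1 (-0.70), the protease Lonp2 (-0.50) and the thioesterase Acot8 (-0.40) fell as well, with limma adjusted p of 0.00743, 0.0142 and 0.0182. Far1, of ether lipid synthesis, was the gene that rose (0.29 ± 0.08, limma adjusted p = 0.0431) and is named after its value was seen, and this call was lost without any single library other than control 264.

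Transcription factors and kinases that control oxidation had a median of -0.16, and 2 of 13 tested fell while 1 rose, shares close to the 15.6% and 7.91% of all tested genes. Pparg, the PPAR known from adipocytes and sebocytes, fell from 7.56 ± 0.203 to 4.56 ± 0.387 FPKM (log2 -0.62 ± 0.07, limma adjusted p = 0.00367). Rxrb, a partner receptor of the PPARs, had a log2 difference of -0.31 ± 0.06 (limma adjusted p = 0.0169). Ppard, the main PPAR of keratinocytes, rose from 27.0 ± 1.87 to 36.6 ± 1.66 FPKM (log2 0.42 ± 0.07, limma adjusted p = 0.0102). Ppara, the PPAR of fasting liver, is named for its role and not by the rule. It was 1.52, 1.36 and 1.05 FPKM in controls and 1.09, 0.585 and 0.430 FPKM in knockout-labelled libraries, which overlapped (limma adjusted p = 0.104). Without control 264, 6 of the 13 fell, and 1 fell without 263, 265 or 266.

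**Figure D4:**
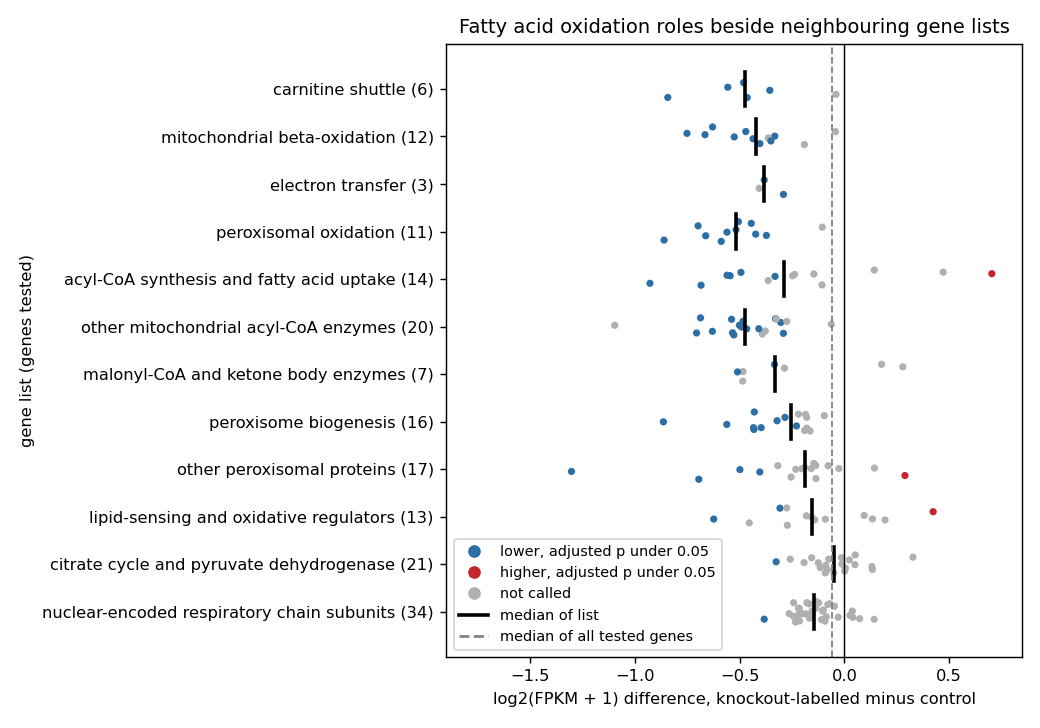
Differences of single genes on the log2(FPKM + 1) scale in the 4 roles of fatty acid oxidation and in 8 neighbouring lists, with the number tested in parentheses, a black bar at each list's median and colours for genes past the limma threshold. The medians of the 4 roles lie between -0.52 and -0.38, while those of the citrate cycle and the respiratory chain lie at -0.05 and -0.15.

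Markers of several cell types moved together with these genes. The counts below stand beside 15.6% of all tested genes lower and 7.91% higher. Without control 261 the share lower was 9.55%, and without 263, 265 and 266 it was 7.30%, 8.62% and 7.42%. Sebaceous gland markers summed to 158 to 179 FPKM in controls and 84.7 to 95.7 FPKM in knockout-labelled libraries, and 8 of 9 fell. For hair follicle keratins and related genes the sums were 1472 to 1850 and 862 to 1009 FPKM, with 7 of 8 lower. Melanocyte markers summed to 351 to 437 and 264 to 296 FPKM, with 4 of 5 lower (2 without control 261, 1 without 265 or without 266). Myeloid and Langerhans markers summed to 36.1 to 48.6 and 25.9 to 28.6 FPKM, with 3 of 5 tested lower (1 without 263, 265 or 266) and Cd207 under 1 FPKM in every library. Dendritic T cell markers summed to 8.34 to 12.0 and 1.43 to 3.93 FPKM, with 3 of 3 tested lower (2 without any single library other than 266). Trdc was under 1 FPKM throughout, and Cd3e and Nkg7 were under 1 FPKM in every knockout-labelled library. The part of these cells in the lower levels of the fatty acid oxidation genes was not tested.

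Markers of the remaining cell types showed fewer calls or another direction, beside the same 15.6% of all tested genes lower and 7.91% higher. Basal keratinocyte markers summed to 8029 to 8530 FPKM in controls and 11876 to 13802 FPKM in knockout-labelled libraries, with 4 of 6 higher and 1 lower. Suprabasal markers summed to 26767 to 28656 and 24424 to 25942 FPKM, so that every knockout-labelled sum lay below every control. Of these 6 genes 1 was lower (16.7%, close to the share of all tested genes). The count was 3 without control 264 and 0 without 261, 263, 265 or 266. Both kinds were abundant in all 6 libraries, which carry the defining keratins of the labelled tissue. Among cells rich in oxidation enzymes, adipocyte markers summed to 15.9 to 21.0 and 13.6 to 14.1 FPKM, also without overlap, with 0 of 3 tested called, and Plin1, Lep, Ucp1 and Cidec were under 1 FPKM in every library. The largest part of each sum was Lipe, and each of the 3 tested genes overlapped between groups. Cfd was 0.224, 0.132 and 3.73 FPKM in controls 261, 262 and 264 and 0.449, 0.392 and 1.70 FPKM in 263, 265 and 266. Skeletal muscle markers overlapped, at 29.1 to 53.6 and 28.6 to 71.7 FPKM, with 0 of 5 called and Myh3 and Myog under 1 FPKM. Fibroblast markers summed to 114 to 142 and 124 to 159 FPKM with 2 of 4 higher (0 without control 261, 1 without control 262 or without 265), and all 5 endothelial markers were under 1 FPKM.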

How the data were processed

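Epidermal RNA of 6 libraries was sequenced, 3 labelled Control and 3 labelled Rictor -/-. CASAVA and Cufflinks were used with GRCm38, per the submitters' processing notes. Neither the aligner nor the annotation, strandedness or versions are stated there. The values deposited are FPKM in a single table with 6 library columns, per its header. Since FPKM is relative to gene length and to the library's total, very abundant genes or a trend with length can shift other values, and gene-level counting error is unknown.

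The table held 49452 rows, of which 49109 matched GENCODE M21 (GRCm38). Where rows shared a symbol the highest mean was kept, and 66 rows were left out. Genes were kept where either group's mean reached 1 FPKM, and analysed as log2(FPKM + 1), so differences of low genes are understated. limma 3.58.1 in R 4.3.3 fitted a linear model with an intensity trend (prior degrees of freedom 2.8), with two-sided p adjusted by Benjamini-Hochberg over 13500 genes and a threshold of 0.05. On simulated data with 13500 genes and 3 libraries per group, 39% of 100 genes changed by 0.5 log2 and 79% of 100 changed by 1 were recovered, with 4 unchanged genes called. The changed genes were drawn from the more abundant ones, and spreads were shuffled among genes. In the real data 3169 genes passed, far more than were changed in the simulation, so these rates may not hold for it. Tables used Python 3.11.15 and pandas 2.3.3, figures matplotlib 3.10.9.

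Relative depth was estimated from the steps between low FPKM values. Promoter windows came from RefSeq (GRCm38.p6). Alternatives covered pseudocount, filter, scaling, length and GC content, variance model, sex and single libraries.

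Members and lists were chosen with earlier results of these data known. All 34 genes are accounted for, with values by library for called ones and for those with the smallest or largest p of a role. Of other lists up to 4 called genes of smallest p are named, plus 2 uncalled ones of highest mean where fewer than 2 were called. A gene that this rule would name is left out of the text.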

Additional observations from a re-analysis of the deposited data

How the results depend on the processing

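The count of fatty acid oxidation genes that fell was 26 as reported and 23 to 26 under either other pseudocount, the stricter minimum of 5 FPKM, median scaling, quantile normalization, the length and GC correction and the fit without intensity trend. In those fits 12.0% to 17.0% of all tested genes were lower. The count was 18 with a sex term, beside 9.02% of all tested genes. With no filter on low values, where more genes were adjusted over, it was 17 of 34, beside 5.58%. These 17 included Acaa1b, so 16 of the 26 kept their call there. Leaving out 1 library gave 12 to 26, and 0 rose under any alternative. The median difference ran from -0.49 to -0.37. Of the 26, 12 kept their call in all 15 alternatives (Cpt1a, Cpt2, Crat, Acads, Hadha, Echs1, Decr2, Hsd17b4, Acaa1a, Scp2, Hacl1 and Cat) and 0 changed sign. Among uncalled genes, Acadl was 0.0013 under median scaling, 0.086 after the length and GC correction and 0.073 without control 264, and ran from -0.12 to 0.073 as single libraries were left out. Cpt1c was 0.088 under quantile normalization, 0.045 without control 262 and 0.0032 without 266, with a range of -0.11 to 0.045 over left-out libraries, and Amacr was 0.015 after the length and GC correction. The causes were not tested.

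Of all tested genes 3169 passed the threshold, 1852 did so with a sex term, and 1462 to 3784 when 1 library was left out. Higher genes were 33.7% of the calls as reported, 44.8% under median scaling, 47.9% under quantile normalization and 51.9% after the length and GC correction. No paired analysis was possible because the labels give no litter or other link between libraries of opposite groups, so any pairing is unknown. With 3 libraries per group, differences of the size of those of Acadvl, Etfb and Hadh could be missed, and values under 1 FPKM carry an unknown counting error.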

Other observations

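Ratios within a library do not depend on its overall scale, and 6 pairs of genes were compared this way after their values had been seen. Acads relative to Acadl, the short-chain against the long-chain dehydrogenase, had ratios of 0.626, 0.609 and 0.549 among the controls (libraries 261, 262, 264). Among the knockout-labelled libraries (263, 265, 266) the ratios were 0.3998, 0.457 and 0.393. The groups did not overlap, which gives an exact two-sided permutation p of 0.1, the smallest that 3 against 3 libraries allow (0.2 adjusted over the 6 pairs). Because the pairs were chosen from these same values, the p-values of this paragraph only describe how the libraries were ordered. The adjustment does not cover that choice. Cat relative to Abcd3, 2 peroxisomal genes, was 1.18, 1.24 and 1.19 against 0.865, 0.879 and 0.911, with the same exact p of 0.1 (0.2 adjusted). Hadha relative to Hadhb, the head-to-head pair, was 1.18, 1.17 and 1.101 against 1.08, 1.08 and 1.06, again with an exact p of 0.1 (0.2 adjusted). Acadm relative to Acadl overlapped between groups (exact p = 0.2). The subunits Etfa and Etfb had ratios of 1.07, 1.06 and 0.960 against 1.07, 1.04 and 1.03 (exact p = 0.8), and Cpt1a to Cpt2 was 2.33, 2.10 and 2.11 against 2.37, 2.22 and 2.12 (exact p = 0.5). The Etfb value is uncertain because of its shared exon bases.

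The median control level of the 32 genes was 35.7 FPKM, against 11.3 FPKM over all tested genes, while their median exonic length (3896 against 4036 bases) and GC content (48.8% against 49.9%) were close to those of all tested genes.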
